A study of Saccharomyces cerevisiae with 4 samples.

Results

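The genes described here encode the yeast Snf1 protein kinase, the phosphatase that opposes it and the Mig repressors. They are SNF1 (YDR477W), SNF4 (YGL115W), SIP1 (YDR422C), SIP2 (YGL208W), GAL83 (YER027C), REG1 (YDR028C), GLC7 (YER133W), MIG1 (YGL035C), MIG2 (YGL209W) and MIG3 (YER028C). They were found by symbol or open reading frame in the authors' table, where all 10 genes were present, in 11 of its 7519 probe sets, since GLC7 had 1 probe set for each of its exons. All 10 passed the filter on dim probe sets and are among the 5130 genes tested.

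RNA of Saccharomyces cerevisiae, strain BY4741, was hybridised to 4 Affymetrix arrays of the type Yeast Genome S98. On 2 arrays the RNA came from cells kept for 15 min with quinine, an alkaloid used against malaria, at 1 g/L and dissolved in ethanol at 0.7% by volume. On the other 2 arrays it came from control cells kept for the same time without the drug. Cells of both groups had been grown in MM4 medium to mid-exponential phase and were put into fresh medium for the incubation. The sources used here do not say whether controls received ethanol, so drug and solvent cannot be told apart. BY4741 is a haploid strain of mating type a that lacks the HIS3, LEU2, MET15 and URA3 functions, in both groups alike. Since the labels leave it unsaid if the replicates of a group came from separate cultures, p-values measure only the spread between these samples, and this may be technical. The question of the comparison was how transcript levels react soon after the drug is added.

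Snf1 is the yeast form of the AMP-activated protein kinase, which is active when glucose is scarce and is needed for the use of other carbon sources. It works as a complex of a catalytic, a gamma and a beta subunit, and is held inactive in high glucose by the phosphatase Glc7 with its targeting subunit Reg1. Mig1, a zinc finger protein, represses genes for other carbon sources while glucose is plentiful, and phosphorylation by Snf1 sends it out of the nucleus. Kinase activity and the place of Mig1 in the cell are set after translation, and transcript levels do not measure them.

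The deposited signals had a median between 596 and 636 on the 4 arrays. All 7 a-cell marker genes were called Present, the array software's call of a signal above background, on all 4 arrays. STE3, the receptor gene of alpha cells, was also called Present on each, at signals between 27.4 and 47.6. The alpha-cell marker SAG1 was called Present on all 4 arrays too, at signals between 527 and 656. MF(ALPHA)2 was called Present on the control arrays only, with signals between 136 and 164 over the 4 arrays. MF(ALPHA)1 was called Present on 1 array and was not tested. Quinine was compared with control by limma on log2 signals with Benjamini-Hochberg adjustment over all 5130 genes, and a gene passed at an adjusted p under 0.05. In this test 1 gene of 5130, or 0.0195%, passed, and it was none of the 10. At an unadjusted p under 0.05 were 324 genes higher with quinine, or 6.32%, and 614 lower, or 12%.

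The 3 repressor genes had higher signals with quinine on both arrays than on either control array, while none passed the test over all genes. Of the 10 genes these 3 alone lay wholly above the controls. The same held for 19.8% of all genes tested, so the share over the 10 genes is not far from the background. The median log2 fold change of the 3 was 1.33, against -0.02 over all genes. Each of the 3 also had an unadjusted p under 0.05 in limma, so that 3 of the 10 genes were higher at that threshold, against the 6.32% of all genes given above.

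MIG2 encodes a zinc finger repressor that acts with Mig1 on the invertase gene SUC2. Its signal was 1998.5 and 858 on the quinine arrays, against 630 and 244 on the control arrays. The groups did not overlap, but the higher array of a group exceeded the lower one 2.33-fold with quinine and 2.58-fold in controls, with replicate 1 the higher in each group. The means were 1428 ± 807 with quinine and 437 ± 272 in controls (SD, n = 2 each). The fold of geometric means was 3.34, a log2 fold change of 1.74 with a 95% interval from 0.37 to 3.11. Its adjusted p in limma was 0.198 and its unadjusted p 0.0212. Among all 5130 genes, MIG2 stood 32nd from the highest log2 fold change.

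MIG3, the closest relative of MIG2, encodes a probable repressor that Snf1 also phosphorylates. Its signal was 686 and 411 with quinine, against 336 and 133 in controls. Here too both quinine arrays were above both control arrays, and replicate 1 was the higher in each group. MIG3 was called Present on both quinine arrays but on 1 of the 2 control arrays, so 1 of its control signals was not above background by that call. Its fold was 2.51, with a log2 fold change of 1.33, a 95% interval from 0.17 to 2.48 and, in limma, an adjusted p of 0.229.

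MIG1 encodes the main glucose repressor of the family. Its signal was 1021 and 666 with quinine, against 565 and 367 in controls. The lowest quinine array was 1.18 times the highest control array. The 2 arrays of a group differed by a similar factor, 1.53 with quinine and 1.54 in controls. Its fold was 1.81, with a log2 fold change of 0.86, a 95% interval from 0.12 to 1.59 and, in limma, an adjusted p of 0.225.

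The size of these changes varied with the array left out. Without control replicate 1, the array on which all 3 repressor genes were the higher of the controls, MIG2 and MIG3 passed over all genes, with folds of 5.36 and 3.98 and adjusted p values of 0.0372 and 0.0225 in limma. Under that omission 105 of the 5130 genes passed, or 2.05%. The spread was then estimated from the quinine arrays alone, with 1 residual degree of freedom, and the lone control array was assumed to vary like them. The fold of MIG3 then rests on the 1 control signal of 133, and its Present call was made for 1 of its control signals. Without control replicate 2 their folds were 2.08 and 1.58, and without quinine replicate 1 the fold of MIG2 was 2.19, while without quinine replicate 2 it was 5.10. Without 1 array, the fold of MIG1 lay between 1.46 and 2.25, with no call. All 3 genes remained higher with quinine in each of these cases. Between arrays of the same replicate number the folds varied less. They were 1.81 and 1.82 for MIG1, 3.17 and 3.51 for MIG2, and 2.04 and 3.08 for MIG3. The labels do not say that these numbers mark pairs.

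**Figure D1:**
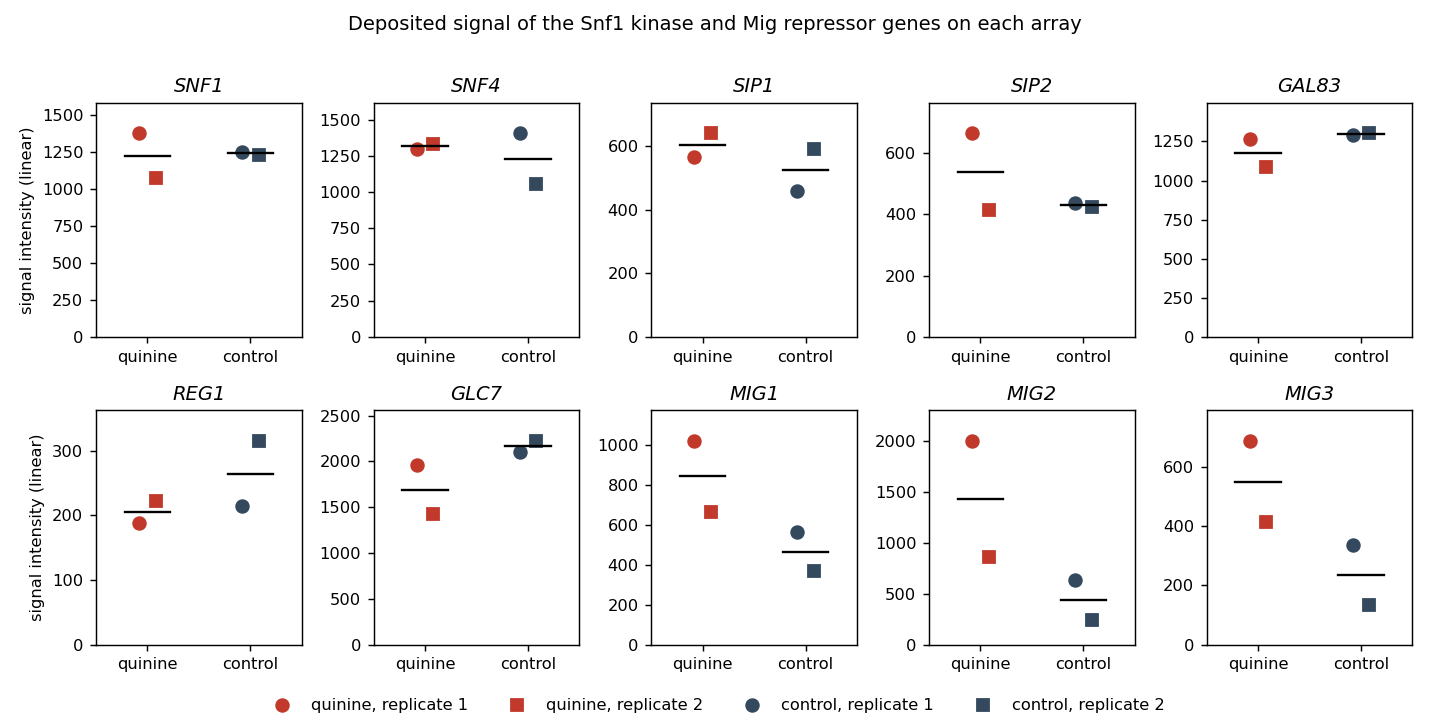
Deposited signal intensity (linear, from 0) of each gene on the quinine arrays (left, red) and the control arrays (right, dark blue), with circles for replicate 1, squares for replicate 2 and a bar at the mean. Both quinine arrays lie above both control arrays for MIG1, MIG2 and MIG3 and below them for GLC7 and GAL83. GLC7 is shown by its brighter probe set.

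The 5 genes of the kinase complex differed little between the groups. Their log2 fold changes lay between -0.15 and 0.28, with a median of 0.11, and none had an unadjusted p under 0.05. SNF1, the gene of the catalytic subunit, had signals of 1373 and 1074 with quinine, against 1245 and 1231 in controls. The 2 quinine arrays lay on either side of the nearly equal control arrays. Its log2 fold change of -0.03 had a 95% interval from -0.50 to 0.44, so a change of either sign within these bounds is not excluded, and the value was 0.15 without quinine replicate 2. SNF4, the gene of the gamma subunit that binds the adenine nucleotides and activates the kinase, was at 1300 and 1332 with quinine and at 1404 and 1057 in controls. Both quinine arrays of SNF4 thus lay between the control arrays. The log2 fold change of SNF4 was 0.11 (95% interval -0.38 to 0.60), and -0.09 without control replicate 2.

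The beta subunits tie the complex together and direct it to different places in the cell. SIP2, whose product is found in the cytoplasm and at the plasma membrane, had signals of 665 and 414 with quinine, against 436 and 426 in controls. The fold of 1.22 came from quinine replicate 1 alone: without that array the log2 fold change was -0.06. SIP1, the gene of the vacuolar beta subunit, was at 566 and 640 with quinine and at 458 and 591 in controls, with arrays that overlapped and a log2 fold change of 0.21 ± 0.20 (SE). GAL83 encodes the beta subunit that lets the kinase enter the nucleus on non-fermentable carbon. It was at 1264 and 1085 with quinine, against 1290 and 1301 in controls. Both quinine arrays of GAL83 were below the controls, the upper one by a small margin, and its log2 fold change was -0.15 ± 0.17 (SE), with an adjusted p of 0.708 in limma.

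Both phosphatase genes had lower mean signals with quinine, and neither passed the test. GLC7, the essential catalytic subunit of protein phosphatase type 1, had signals of 1956 and 1426 with quinine, against 2105 and 2222 in controls, on its exon 2 probe set. The exon 1 probe set gave 688 and 677 with quinine, against 856 and 1009 in controls. On both probe sets the quinine arrays lay below the control arrays. The log2 fold change was -0.37 on exon 2 and -0.45 on exon 1. For the brighter probe set, that of exon 2, the 95% interval ran from -0.87 to 0.13 and the adjusted p in limma was 0.390. GLC7 and GAL83 were the 2 of 10 genes wholly below the controls, against 29.8% of all genes tested.

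REG1 encodes the subunit that brings Glc7 to the kinase. Its signal was 188 and 222 with quinine, against 214 and 315 in controls, so that the groups overlapped. The log2 fold change was -0.35 ± 0.24 (SE; adjusted p of 0.489 in limma). It was -0.07 without control replicate 2.

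**Figure D2:**
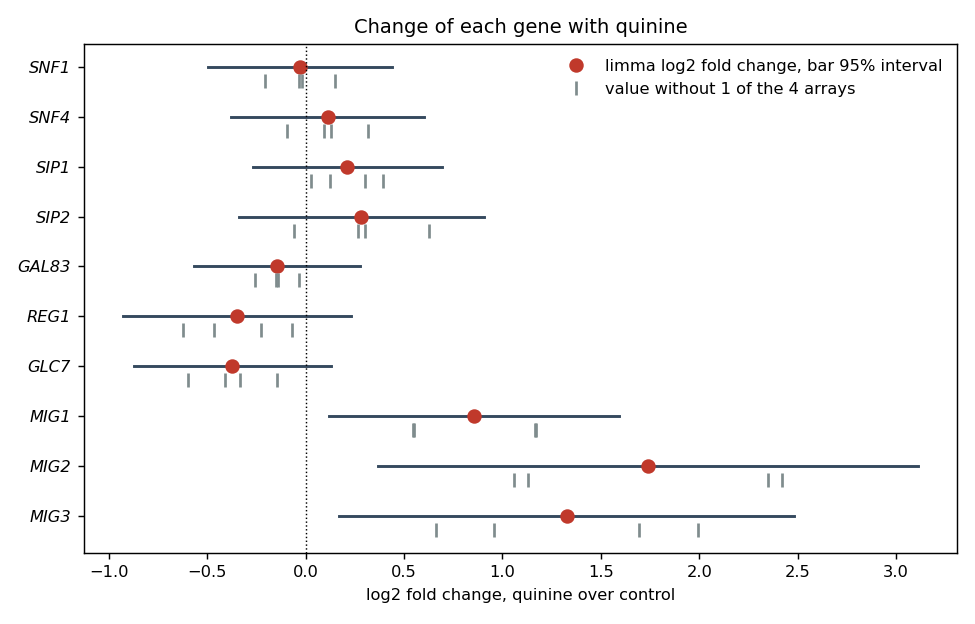
Log2 fold change of quinine over control for each gene (points) with its 95% interval in limma (bars), and the value when 1 of the 4 arrays was left out (grey ticks). The intervals of MIG1, MIG2 and MIG3 lie above 0 and those of the other 7 genes span it.

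Set among all genes, the 3 repressor genes stood near the upper end, and the kinase and phosphatase genes in the body of the distribution. Of all genes tested, 99.4% had a lower log2 fold change than MIG2, 99.0% a lower one than MIG3 and 97.7% a lower one than MIG1. The figures were 49.4% for SNF1 and 17.5% for GLC7. The median size of the change was 0.32 on the log2 scale over the 10 genes and 0.22 over all genes, and the median signed change was 0.16 against -0.02. Of the 10 genes, 6 were higher and 4 lower in their mean log2 signal with quinine, while 46.7% of all genes were higher and 53.3% lower.

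**Figure D3:**
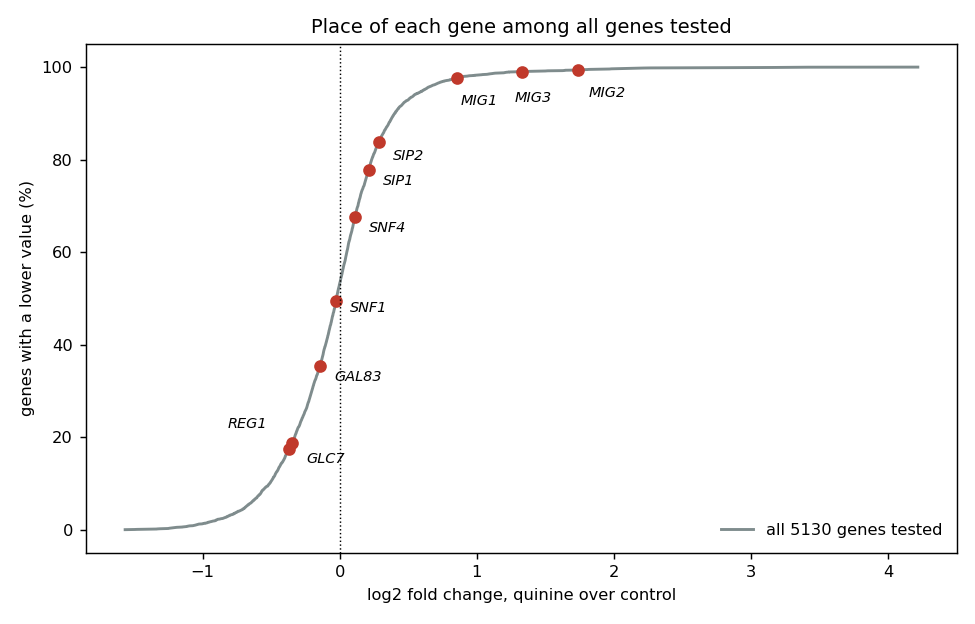
Percent of all 5130 genes with a lower log2 fold change (vertical axis) against the log2 fold change of quinine over control (horizontal axis). The 10 genes are red points on the grey curve of all genes, with MIG1, MIG3 and MIG2 between 97.7% and 99.4% and the other 7 between 17.5% and 83.7%.

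Some of these genes lie side by side. In the gene order of assembly R64, MIG2 is next to SIP2 on chromosome VII and MIG3 is next to GAL83 on chromosome V. SIP2 with GAL83, and MIG2 with MIG3, are pairs known to stem from the ancient duplication of the yeast genome. In both places the repressor gene had the larger change. The log2 fold change was 1.74 for MIG2 beside 0.28 for SIP2, and 1.33 for MIG3 beside -0.15 for GAL83. The genes on the outer sides had log2 fold changes of -0.19 for YPT32 and -0.23 for SPT16 around the first pair, and of 0.36 for CHO1 and -0.36 for SMB1 around the second. Differences between neighbours were not tested.

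Related genes were set against each other by the log2 ratio of their signals on each array. Of 6 pairs compared, among the 3 beta subunit genes and among the 3 MIG genes, MIG1 and MIG2 differed most in their change. The ratio of MIG1 over MIG2 was -0.97 and -0.36 on the quinine arrays, against -0.16 and 0.59 on the control arrays, a difference of -0.88 ± 0.48 (SE). Its exact two-sided permutation p of 0.333, adjusted to 0.500 over the 6 pairs, is the smallest that 2 against 2 arrays allow. The change of MIG2 exceeded that of MIG3 by 0.41 ± 0.24 (SE). That of SIP2 exceeded that of GAL83 by 0.43 ± 0.23 (SE). For MIG1 against MIG3 the difference was -0.47 ± 0.36 (SE). Each of these pairs had the same exact p. For SIP1 against GAL83 the difference was 0.36 ± 0.27 (SE), with an exact permutation p of 0.667. For SIP1 against SIP2 the difference was -0.07 ± 0.47 (SE), with an exact permutation p of 1.000.

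The genes most like the repressor genes over the 4 arrays were found by the Euclidean distance between log2 signals centred on each gene's mean. With 4 arrays this is a description of the pattern, and many genes lie close together. Nearest to MIG2 were CSR2 at a distance of 0.20, COS111 at 0.37 and YKR075C at 0.39. CSR2 had signals of 1107 and 538 with quinine, against 329 and 132 in controls, so that it shared the order of all 4 arrays with MIG2. MIG3 stood 9th in likeness to MIG2, at a distance of 0.54, and MIG1 stood 67th, at 1.11. Nearest to MIG1 were YNR014W at 0.11 and the carnitine acetyltransferase genes CAT2 and YAT1, both at 0.12. Nearest to MIG3 were COS111 at 0.23, TIS11 at 0.33 and SRL3 at 0.33. COS111 was dim, with signals of 46.0 and 25.5 with quinine, against 20.4 and 7.14 in controls, so its pattern rests on low signals.

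Upstream of the complex are the 3 kinases that phosphorylate and activate Snf1. Their genes all had lower mean log2 signals with quinine, against 53.3% of all genes, by a median of -0.52, and none passed the test. ELM1, which also acts in bud morphogenesis, was at 127 and 136 with quinine, against 200.5 and 190.5 in controls. It was thus lower without overlap, which held for 29.8% of all genes. Its log2 fold change was -0.57 and its adjusted p 0.168 in limma. The arrays of TOS3 and SAK1 overlapped between groups, at log2 fold changes of -0.52 and -0.21, and 1 of the 3 was higher without control replicate 1.

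Among the genes of other Glc7 partners, 14 of 16 were tested, of which 7 were higher and 7 lower, with a median of 0.004 and none past the test. REG2, the relative of REG1, was at 272 and 119 with quinine, against 112 and 48.1 in controls, a fold of 2.45 (adjusted p of 0.274 in limma). REG1 and REG2 thus had log2 fold changes of opposite sign, -0.35 and 1.29. That difference was not tested. PIG1, a putative subunit that brings Glc7 to glycogen synthase, was called Present on the quinine arrays only, and was at least 1.41-fold higher there if its control signal is read as an upper bound. REF2, which acts in messenger RNA 3′ end formation, had a log2 fold change of -0.67, and SCD5, which acts in actin organization and endocytosis, one of 0.29.

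Genes of the repressors' partners had smaller values than the MIG genes, a difference that was not tested. Of 7 genes for corepressors and other glucose repressors, 5 were higher and 2 lower, with a median of 0.12 and none past the test. The 2 lower were NRG1 and NRG2, at log2 fold changes of -0.49 and -0.17, with arrays that overlapped. HXK2, the hexokinase that also takes part in glucose repression with Mig1, was at 9498 and 8776 with quinine, against 7318 and 5851 in controls. The groups of HXK2 did not overlap, and its log2 fold change was 0.48 with an adjusted p of 0.158 in limma. TUP1 and CYC8, the corepressor that Mig1 recruits, had log2 fold changes of 0.12 and 0.10, with arrays that overlapped for CYC8. RGT1, the repressor of hexose transporter genes, had one of 0.20. Among 7 genes of Snf1 partners and substrates, 4 were higher and 3 lower, with none past the test. SIP5, whose product binds both Reg1 and Snf1, was at 1133 and 1083 with quinine and at 685 and 818 in controls, a fold of 1.48. GPD2, a glycerol 3-phosphate dehydrogenase that Snf1 phosphorylates, had a log2 fold change of -0.35, and ACC1, the acetyl-CoA carboxylase inhibited by Snf1, one of -0.08.

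Downstream of the kinase, most genes of activators and targets had higher signals with quinine. These lists were drawn up with earlier results of these data known, so their direction is a description and lends no independent weight to that of the MIG genes. Of the 4 activator genes, 3 were higher. ADR1, the activator of alcohol and glycerol use, was at 1768 and 1732 with quinine, against 592 and 267 in controls, a fold of 4.40 (adjusted p of 0.0822 in limma). CAT8, an activator of gluconeogenic genes, was called Present on the quinine arrays only and was at least 7.74-fold higher by the same reckoning. SIP4, a related activator that binds the complex, had a log2 fold change of 0.34, and RDS2 one of -0.25. No activator gene passed over all genes.

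Of 20 genes listed as repressed by Mig1, 18 were tested and all 18 were higher with quinine, the median change being 1.25 on the log2 scale. In 16 of the 18 the arrays did not overlap, against the 19.8% of all genes given above. CAT8 and MAL31 passed the filter only through the quinine arrays, and in the 10 genes called Present on all 4 arrays 10 were higher, with a median of 1.20. The maltose activator gene MAL33 was the 1 gene past the test, with signals of 834 and 1058 with quinine, against 106 and 73.0 in controls. Its adjusted p of 0.0488 in limma was close to the threshold. The gene no longer passed with quantile scaling, with median scaling, in the fit with no variance trend, or when either quinine array was omitted, where its adjusted p lay between 0.0711 and 0.238. The permease gene MAL31 was at least 3.12-fold higher by the same reckoning. GAL4, the galactose activator gene, had signals of 379 and 432 with quinine, against 187 and 177 in controls, and the Present call was made for 1 of its control signals.

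Target genes of the activators were mostly higher too. Of 8 tested genes under Cat8 and Sip4, 8 were higher and 4 of them without overlap, against 46.7% and 19.8% of all genes, and none passed the test. ICL1, the isocitrate lyase of the glyoxylate cycle, was at 1427 and 630 with quinine, against 241 and 244 in controls, a fold of 3.91. The lactate permease gene JEN1, with the Present call made for 1 of its control signals, had a fold of 2.30, the acetyl-CoA synthetase gene ACS1 one of 2.04, and the carnitine acetyltransferase gene CAT2 one of 1.82. Of 6 tested genes under Adr1, 5 were higher, against the same 46.7%, with GUT1, the glycerol kinase gene, at 624 and 717 with quinine and at 372 and 374 in controls, a fold of 1.79. ALD4, an aldehyde dehydrogenase gene, had a fold of 6.44, the acetate transporter gene ADY2 one of 1.80, and the alcohol dehydrogenase gene ADH2 one of 1.28. Of the 6, 4 were higher without overlap, against 19.8% of all genes, and 1 was lower without overlap, against 29.8%. The lower gene was CTA1, at 61.9 and 59.8 with quinine, against 71.4 and 79.8 in controls.

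MIG2 and MIG3 are themselves known as targets of Rgt1, a repressor that glucose inactivates. Of 5 other genes under Rgt1, 4 were higher, against 46.7% of all genes, by a median log2 fold change over the 5 of 0.64, and none passed the test. The hexose transporter genes HXT4, HXT2 and HXT3 had folds of 3.26, 2.17 and 1.55. These 3 of the 5 were higher without overlap, against 19.8% of all genes. HXT4 and HXT2 also stand in the list of Mig1 target genes above. STD1, a partner of Snf1 and of the glucose sensors, was at 1176 and 880.4 with quinine and at 1376 and 1171 in controls, a log2 fold change of -0.32 with arrays that overlapped.

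**Figure D4:**
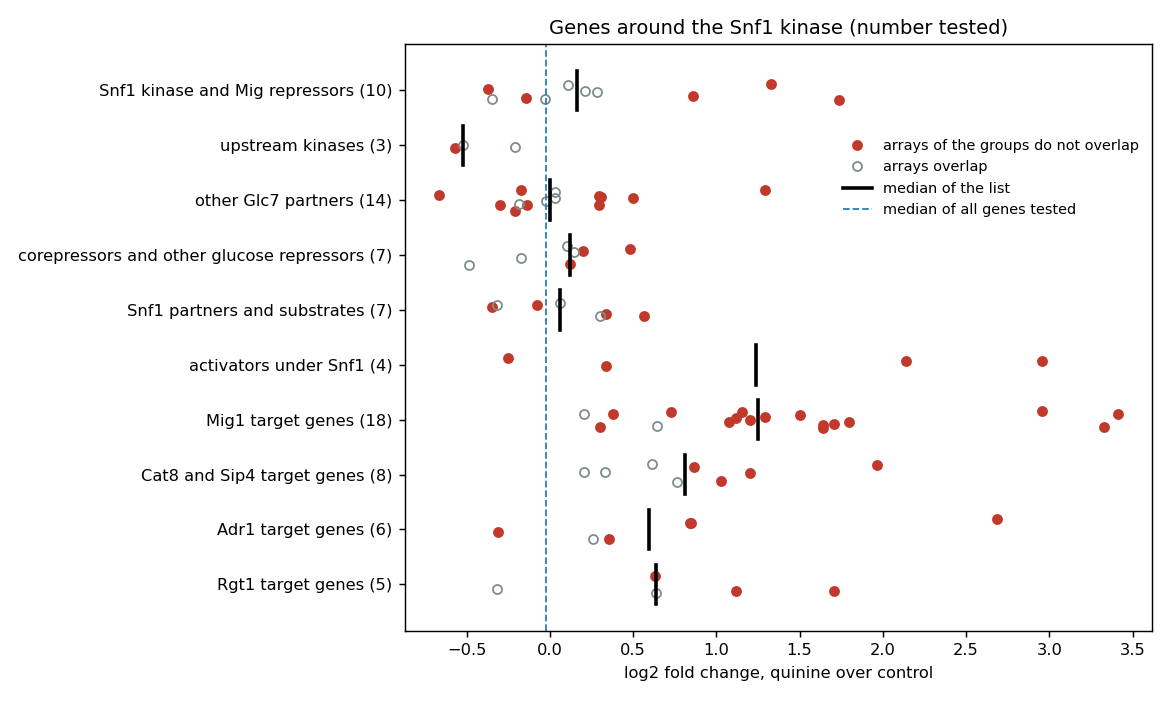
Log2 fold change of quinine over control for every tested gene of 10 lists around the kinase, with filled points where the arrays of the groups do not overlap, open points where they do, a black bar at each list's median and a dashed line at the median of all genes. The medians run from -0.52 for the upstream kinases to 1.25 for the Mig1 targets, and some genes stand in more than 1 list.

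The authors marked 777 probe sets of their deposited table, or 10.3%, and none of the 11 described here was among them. Every marked probe set had a lower bound whose size was 1.2 or more. The authors' deposited table gives MIG1 a fold of 1.81 with bounds of 1.07 and 3.07, MIG2 one of 3.26 with bounds of 0.99 and 13.01, and MIG3 one of 2.34 with bounds of 1.09 and 8.5. For the exon 1 probe set of GLC7, the authors' deposited table has a signed fold of -1.37, with bounds of -1.18 and -1.56. The minus sign means lower with quinine. The size of that lower bound is below 1.2, the smallest seen among the marked probe sets. SNF1 is at -1.01 in the authors' deposited table.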

How the data were processed

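Signals of 1 value per probe set and array were deposited by the authors as linear intensities. MAS5 is named, with no role or version, per the submitters' processing notes, with no method of scaling given in the sources used here. The authors' table adds group means of intensity, their standard errors, the percent of a group's arrays called Present, deposited as a percent, and signed folds with bounds, deposited as the authors' own scores. Probe sets that named 1 gene by an open reading frame of assembly R64 were 5291, of which 5218 were called Present on at least 2 of 4 arrays. The brightest probe set of a gene was kept, which left 5130 genes. Log2 signals, deposited on a linear scale by the authors and used with no pseudocount, were compared in limma 3.58.1 (R 4.3.3), with lmFit and eBayes, a variance trend, 2 residual and 3.86 prior degrees of freedom, with Benjamini-Hochberg adjustment, checked on simulated data. Means are followed by the SD of 2 arrays, whose number limits the precision. A gene called Present on neither control array was given a bound. Its control level was set to its own signal or to the dimmest signal that was Present on both, whichever was higher. For the genes named, their own signal was the higher, so the bound equals the fold and leaves out the spread between arrays. The members and the gene lists were chosen with earlier results of these data known. Named were all 10 genes, up to 4 genes of each list with the lowest p among those without overlap, with any gene past the test, and the 3 genes nearest in pattern to the 3 genes with the lowest p. Other list members named were chosen after their values were seen. Alternatives were other scalings, filters, an offset of 50, no variance trend, averaged probe sets, a replicate block and leaving out each array. Sequences of promoters and proteins were not used here.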

Additional observations from a re-analysis of the deposited data

How the results depend on the processing

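Neither another scaling (quantile or median), nor dropping the variance trend, nor the other Present filters, an offset of 50 or averaged probe sets brought any of the 10 genes past the test. The count of called genes was 1 as reported. That gene was MAL33. Quantile scaling, median scaling and the fit with no trend each gave 0, and the offset of 50 gave 2. Leaving out single arrays gave counts between 0 and 105 over all genes and between 0 and 2 among the 10. Over the same omissions the median log2 fold change of the 10 genes lay between 0.035 and 0.16. Omitting an array turned the sign of SIP2, which lay between -0.059 (quinine replicate 1 omitted) and 0.62, of SNF1, between -0.21 and 0.15 (quinine replicate 2 omitted), and of SNF4, between -0.094 (control replicate 2 omitted) and 0.32. The difference of SIP1 against SIP2 lay between -0.50 and 0.36 and was above 0 with control replicate 2 or quinine replicate 1 omitted. Each cause was not tested. The dimmer probe set of GLC7, an alternative chosen after seeing the data, gave -0.45.

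The labels give both groups replicate numbers 1 and 2 but do not say that a number marks a shared culture or day. The differences of replicate 1 minus replicate 2 correlated across 5130 genes between the groups at r = 0.62, a hint from the data and not from the design, over genes that are not independent. With the number as a replicate block, 1458 genes were called, or 28.4% of all 5130. Of the 10 genes, 4 were called against that 28.4%: MIG1, MIG2, MIG3 and GLC7, the last with an adjusted p of 0.0369 in limma. Within numbers 1 and 2 the fold was 1.81 and 1.82 for MIG1, 3.17 and 3.51 for MIG2, and 2.04 and 3.08 for MIG3, while for GLC7 it was 0.93 and 0.64. This fit had 1 residual degree of freedom and an infinite prior, so each gene's own spread did not enter its p.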
